A study of Rattus norvegicus with 12 samples.

Results

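The genes described here are Pmel, Mlana and Gpnmb, which encode membrane proteins of the melanosome and related organelles, and Mitf, a transcription factor of pigment cells. The 4 genes were chosen by their signals in these arrays, above all by the high signals of Pmel and Mlana in the haploid ES cells against the diploid ES cells. Their levels are therefore given as a description and carry no test. Every probe set that named exactly 1 of the 4 genes was taken, which gave 5 of 31099 probe sets, for 4 of 14218 genes on the array. Pmel, Mlana and Gpnmb had 1 probe set each and Mitf had 2, and all 5 passed the filter on low signals.

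Total RNA of inbred Dark Agouti rats was hybridised to 12 Affymetrix Rat Genome 230 2.0 arrays, 3 biological replicates in each of 4 groups. The lines RAH-6 and RAH-2 (RahES) hold haploid embryonic stem (ES) cells of androgenetic origin, with a genome from sperm alone. A single diploid line, DA5-3, stood against them, and all ES cells were grown in N2B27-2i, a serum-free medium with inhibitors that hold rat ES cells undifferentiated. Round sperm cells were freshly isolated haploid germ cells. Ploidy, parental origin and line therefore cannot be told apart, and in bulk RNA fewer cells of a type cannot be told apart from less RNA per cell. The number of arrays limits the precision.

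Values are MAS5 signals, a brightness summarised per probe set and scaled to a 2% trimmed mean of 500 on each array. A signal of 100 served as the lower limit for a measured level. Replicate arrays correlated at 0.980 to 0.982 in RAH-6, 0.980 to 0.984 in RAH-2, 0.974 to 0.977 in DA5-3 and 0.967 to 0.969 in round sperm. The 3′ to 5′ signal ratio of Gapdh, a sign of RNA length, was on average 1.14 in RAH-6, 1.26 in RAH-2, 1.47 in DA5-3 and 2.18 in round sperm. Of the pluripotency list, 9 of 10 genes were at or above 100 on every array of each ES line, and 11 of 11 round spermatid genes were so in round sperm.

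Melanosomes are lysosome-related organelles in which pigment cells make melanin. PMEL is cut into fragments that form the amyloid fibrils on which melanin is laid down, and MLANA (also MART-1) is a small membrane protein that binds PMEL and is needed for its processing. GPNMB is a transmembrane glycoprotein related to PMEL, found in melanosomes and also in lysosomes of macrophages and other cells. MITF is a basic helix-loop-helix leucine zipper factor that drives pigment genes in melanocytes and forms dimers with TFEB, TFE3 and TFEC, which drive lysosome genes. Roles are known mainly from mouse and human.

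The promoters are shown because factors of the MITF family bind E-boxes, above all CATGTG, which reads CACATG on the other strand, and CACGTG, which reads the same on both. Each line holds the 250 bases before the gene start on the plus strand of the rat assembly GRCr8, from RefSeq. Capitals mark a match to either motif or to the longer forms TCATGTGA, which reads TCACATGA on the other strand, and TCACGTGA, both of which contain a shorter form. The regions are chr7:1722993-1723242 for Pmel, chr1:236882825-236883074 for Mlana and chr4:79340878-79341127 for Gpnmb.
Pmel: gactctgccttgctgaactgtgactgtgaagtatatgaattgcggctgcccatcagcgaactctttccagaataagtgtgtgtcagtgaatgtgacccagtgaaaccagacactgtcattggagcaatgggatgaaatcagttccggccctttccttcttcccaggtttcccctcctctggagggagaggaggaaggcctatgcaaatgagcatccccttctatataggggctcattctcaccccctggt
Mlana: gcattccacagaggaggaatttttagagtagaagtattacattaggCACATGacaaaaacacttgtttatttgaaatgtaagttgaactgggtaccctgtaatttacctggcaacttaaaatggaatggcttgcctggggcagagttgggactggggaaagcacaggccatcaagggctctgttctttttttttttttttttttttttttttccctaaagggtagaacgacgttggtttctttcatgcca
Gpnmb: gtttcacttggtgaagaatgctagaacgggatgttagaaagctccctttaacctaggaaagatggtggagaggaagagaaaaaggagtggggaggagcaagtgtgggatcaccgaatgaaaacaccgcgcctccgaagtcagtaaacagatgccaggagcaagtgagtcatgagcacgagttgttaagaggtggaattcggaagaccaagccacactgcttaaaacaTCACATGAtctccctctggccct
The Gpnmb window held TCACATGA, 23 bases before the start, and the Mlana window held CACATG, 204 bases before it. None of these letters occurred in the window of Pmel, which RefSeq places inside a longer span of that gene, or in that of Mitf. Over 33469 rat windows of this length, 12.1% held CATGTG, 5.59% held CACGTG, 0.977% held TCATGTGA and 0.657% held TCACGTGA. A match is a description of letters and not of binding.

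Pmel, the fibril protein, had its strongest signal in RAH-6. Its probe set 1393229_at read 1170, 1220 and 1153 in RAH-6, 336, 398 and 309 in RAH-2, 97.5, 102 and 76.7 in DA5-3, and 343, 328 and 339.97 in round sperm. The 3 ES lines fell into separate ranges in the order RAH-6, RAH-2, DA5-3, while round sperm lay within the range of RAH-2. Means were 1181 ± 34.7 in RAH-6, 348 ± 45.7 in RAH-2, 92.1 ± 13.5 in DA5-3 and 337 ± 7.96 in round sperm (SD, n = 3 each). On the log2 scale, after 16 was added to each signal, Pmel was 3.48 ± 0.12 (SE) higher in RAH-6 than in DA5-3 and 1.75 ± 0.12 higher in RAH-2 than in DA5-3. The mean of both haploid lines was 2.61 ± 0.10 above DA5-3, and RAH-6 was 1.73 ± 0.12 above RAH-2. The gap between the haploid lines was thus about as large, on this scale, as that between RAH-2 and DA5-3. Among all probe sets of an array, Pmel lay above 85.6% to 86.3% in RAH-6, 67.8% to 71.2% in RAH-2, 47.7% to 52.0% in DA5-3 and 75.5% to 76.0% in round sperm.

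Mlana, the partner of PMEL, separated the haploid lines from both other groups. The probe set 1390596_at read 393, 319 and 326 in RAH-6, 306, 316 and 289.5 in RAH-2, 4.69, 35.9 and 3.76 in DA5-3, and 5.59, 4.26 and 1.61 in round sperm. All 6 arrays of the haploid lines were above 100 and all arrays of DA5-3 and round sperm were far below it. Means were 346 ± 40.9 in RAH-6, 304 ± 13.6 in RAH-2, 14.8 ± 18.3 in DA5-3 and 3.82 ± 2.03 in round sperm (SD, n = 3 each). With 100 as the limit of a measured level, Mlana was at least 3.46-fold higher in RAH-6 and at least 3.04-fold higher in RAH-2 than in DA5-3. The mean of the haploid lines was at least 3.25-fold higher than DA5-3 and at least 3.25-fold higher than round sperm. The haploid lines differed by 0.17 ± 0.30 on the log2 scale. Their ranges lay side by side, with the lowest RAH-6 array at 319 and the highest RAH-2 array at 316. DA5-3 and round sperm, both below 100, were given no order.

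Gpnmb, the relative of PMEL that is also a lysosomal protein of macrophages, followed the order of Pmel among the ES lines at lower signals. The probe set 1368187_at read 305, 301 and 322 in RAH-6, 133, 138 and 112 in RAH-2, 78.8, 59.1 and 8.69 in DA5-3, and 119.7, 98.0 and 141 in round sperm. No ES line overlapped another, and round sperm overlapped RAH-2. Means were 309.6 ± 11.1 in RAH-6, 128 ± 14.0 in RAH-2, 48.9 ± 36.1 in DA5-3 and 119.6 ± 21.6 in round sperm (SD, n = 3 each). Gpnmb was at least 3.10-fold higher in RAH-6 and at least 1.28-fold higher in RAH-2 than in DA5-3, and 2.42-fold higher in RAH-6 than in RAH-2. Against round sperm, DA5-3 was at least 1.20-fold lower. The array of DA5-3 replicate 3, at 8.69, stood apart from the others of that line. Without it, the log2 difference of RahES from DA5-3 was 1.36, against 1.95 ± 0.32 (SE) with all arrays, and that of RAH-2 from DA5-3 was 0.77, against 1.36 ± 0.37.

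Mitf, the transcription factor, was strong in every ES line and ran the other way. The probe set 1377328_at read 3819, 3800.5 and 3496 in RAH-6, 4496, 3881 and 4255 in RAH-2, 4938, 5173 and 5249 in DA5-3, and 6.15, 11.3 and 5.31 in round sperm. The ES lines did not overlap and were ordered RAH-6, RAH-2, DA5-3 from low to high, with round sperm far below 100. Means were 3705 ± 181 in RAH-6, 4211 ± 309.8 in RAH-2, 5120.0 ± 162 in DA5-3 and 7.58 ± 3.24 in round sperm (SD, n = 3 each). On the log2 scale Mitf was 0.47 ± 0.06 (SE) lower in RAH-6 and 0.28 ± 0.06 lower in RAH-2 than in DA5-3. It was at least 39.6-fold higher in RahES and at least 51.2-fold higher in DA5-3 than in round sperm. The signal lay above 95.3% to 97.1% of all probe sets of an ES cell array, so that the factor itself was among the brighter ones.

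The second Mitf probe set gave the same picture against round sperm but did not separate the ES lines. The probe set 1393836_at read 2001, 1901 and 2003 in RAH-6, 1776, 1942 and 2042 in RAH-2, 2992, 2587 and 1920.1 in DA5-3, and 14.9, 2.58 and 22.7 in round sperm. The ranges of RAH-6 and RAH-2 overlapped, and that of DA5-3 overlapped both through its replicate 3 alone. Means were 1968 ± 57.9 in RAH-6, 1919.85 ± 134 in RAH-2, 2499.77 ± 541 in DA5-3 and 13.4 ± 10.2 in round sperm (SD, n = 3 each). The small step between RAH-6 and RAH-2 thus rested on 1 of the 2 probe sets. Probe sets of 1 gene can report different transcripts, and which transcripts of Mitf these 2 report was not determined here.

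**Figure D1:**
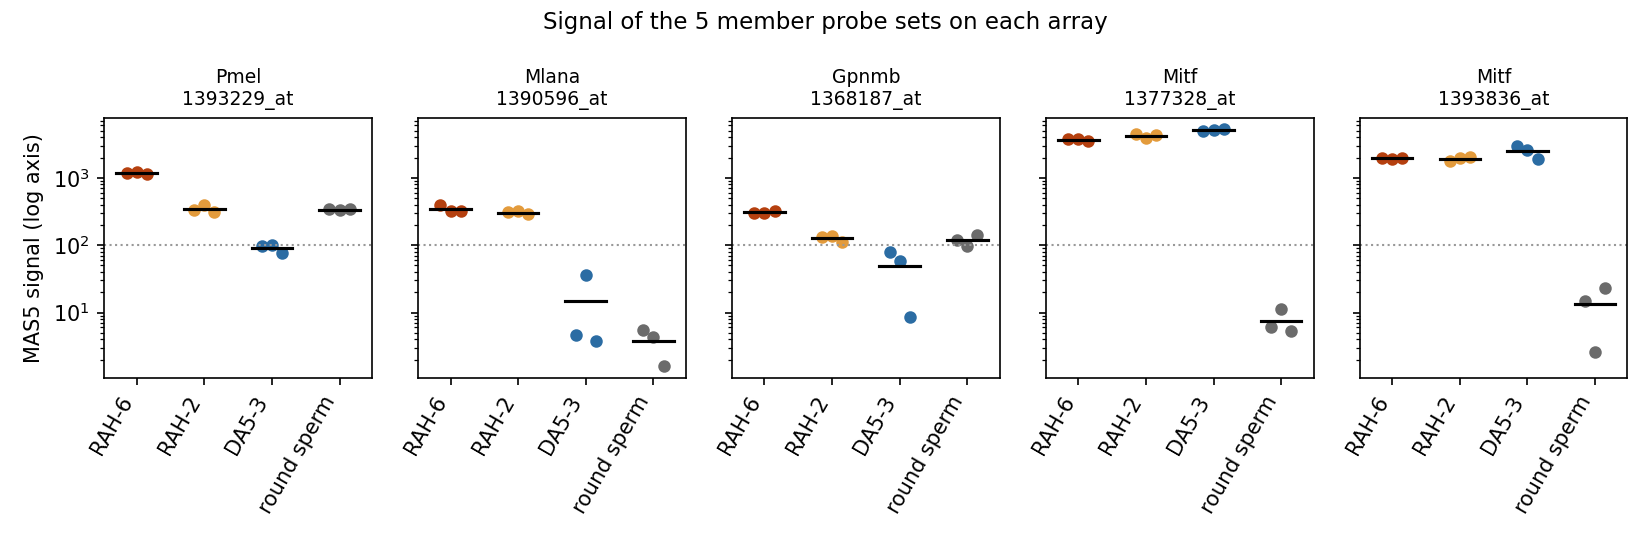
MAS5 signal (log axis) of the 5 probe sets on each of the 12 arrays; points are arrays, black bars group means and the dotted line a signal of 100. Pmel and Gpnmb descend from RAH-6 over RAH-2 to DA5-3, Mlana is above 100 on the 6 haploid arrays alone, and Mitf is far below 100 in round sperm.

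The patterns of the members were read against all 9323 genes of the ES cell fit. The order RAH-6 above RAH-2 above DA5-3, with no overlap, was met by 7.36% of genes, Pmel, Mlana and Gpnmb among them, Mlana with the narrow gap between RAH-6 and RAH-2 given above. With each mean at least 2 times the next, 14 genes (0.15%) met it, with Pmel among them. Gpnmb met it by its measured means, but its DA5-3 arrays were below 100, and against that limit RAH-2 was only at least 1.28-fold higher. A signal of at least 100 on every RahES array and below 100 on every DA5-3 array, as in Mlana and Gpnmb, was found for 1.13% of genes. The reverse order without overlap, as in the stronger Mitf probe set, was met by 5.03% of genes. Separate ranges alone were common, since 44.4% of genes did not overlap between RahES and DA5-3 and 41.2% did not between RAH-6 and RAH-2. Since the members were picked for such differences, these shares describe how common each pattern was and do not test it.

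Other measures differed between the ES lines too. The Gapdh ratio ranged from 1.11 to 1.16 in RAH-6 and 1.23 to 1.30 in RAH-2, against 1.35 to 1.69 in DA5-3, and the actin ratio averaged 3.09 in RAH-6 and 4.36 in RAH-2, against 6.19 in DA5-3. Both ratios were thus lowest where Pmel and Gpnmb were highest. Summed signals of 15 fibroblast and feeder markers, such as Col5a2 and Col1a2, were 5206 to 5477 in RAH-6 and 1290 to 5857 in RAH-2, against 39212 to 42768 in DA5-3. The highest sum of RAH-2 was that of replicate 2, where Pmel, Mlana and Gpnmb were also the highest of that line. This was 1 array, and Mlana (316 against 306) and Gpnmb (138 against 133) were close to replicate 1. Between the ES lines, DA5-3 had the highest sums and the lowest Pmel, Mlana and Gpnmb. The part of RNA length and of such cells in the members' differences was not tested.

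The genes that define pigment cells had mean signals below 100 in the ES lines. Mean signals of Tyr, tyrosinase, the first enzyme of melanin synthesis, were 24.0 in RAH-6, 13.0 in RAH-2, 3.92 in DA5-3 and 12.3 in round sperm. Dct, the next enzyme, read 54.9 in RAH-6, 34.7 in RAH-2, 53.4 in DA5-3 and 72.8 in round sperm, and Sox10, a neural crest factor that switches on Mitf, read 15.3 in RAH-6, 13.6 in RAH-2, 8.03 in DA5-3 and 47.3 in round sperm. Pmel and Mlana thus stood at or above 289.5 in the haploid lines beside pigment enzymes below the limit of 100. Over the 6 melanocyte markers on the array, 0 were at or above 100 on every array of any ES line, whereas 5 in RAH-6, 6 in RAH-2, 5 in DA5-3 and 4 in round sperm were below 100 on every array. Their summed signal was 219 to 289 in RAH-6, 145 to 199.97 in RAH-2, 176 to 255 in DA5-3 and 511 to 676 in round sperm.

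Markers of other cells that use these genes were read in the same way. The 8 markers of retinal pigment epithelium summed to 437 to 493 in RAH-6, 434 to 605 in RAH-2, 223 to 415 in DA5-3 and 218 to 341 in round sperm. Of these 8, 6 were below 100 on every array of each ES line, and only Otx2 was at or above 100 on all of them. Otx2 was the most abundant, with a mean of 231 for RAH-6 and 340 for RAH-2, against 156 for DA5-3. The 8 neural crest and glial markers summed to 1665 to 1803 in RAH-6, 1366 to 1601 in RAH-2, 1451 to 1725 in DA5-3 and 400.5 to 444 in round sperm, with Ets1 the most abundant in ES cells. Of 17 macrophage markers, which bear on Gpnmb, 1 was at or above 100 on every array of each ES line, and 12 were so in round sperm. Their summed signal was 915 to 951 in RAH-6, 732 to 807 in RAH-2, 654 to 852 in DA5-3 and 18103.5 to 19770 in round sperm. That 1 marker in ES cells was Laptm5, a lysosomal membrane protein of blood cells, at 497 ± 37.9 in RAH-6 and 412 ± 17.4 in RAH-2, against 199.85 ± 8.73 in DA5-3 (SD, n = 3 each). In round sperm Aif1 (12639) made up most of that sum, with Adgre1 at 2021. The list was not uniform there, since 4 of the 17 were below 100 on every array, Ptprc (35.7), Cd14 (63.5), Itgam (9.72) and Laptm5 (83.9). Gpnmb read 98.0 to 141 in the same libraries, and the part of macrophages in that signal was not tested.

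**Figure D2:**
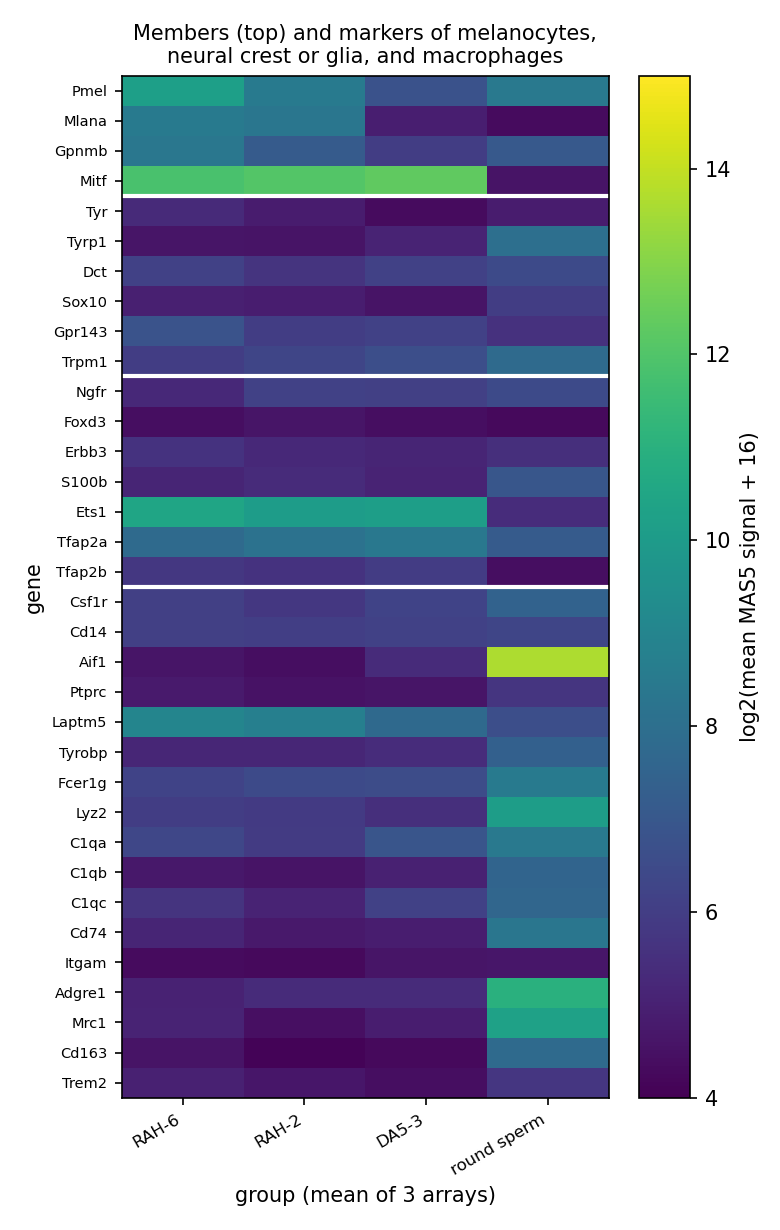
Mean signal per group (colour, log2 of the mean MAS5 signal plus 16) of the members, melanocyte, neural crest or glial, and macrophage markers, with white lines between the lists. The ES columns are bright for Mitf and dark for Tyr, Tyrp1, Dct and Sox10, and Aif1 is the brightest macrophage gene in round sperm.

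To see how other genes of the pathway stood, 118 genes on the array from 5 lists were compared with limma, with Benjamini-Hochberg adjustment over all genes of the fit. A gene was called changed at an adjusted p below 0.05 and a log2 difference of at least 1 in size. Between RahES and DA5-3, 3 of 94 measured pathway genes rose and 3 fell, or 6.38%, against 6.65% of all 9323 genes (3.73% higher and 2.92% lower). The share among pathway genes was near that of all genes. In RAH-6 against DA5-3, 4 rose and 3 fell, or 7.45%, against 7.68% of all genes (4.77% higher and 2.91% lower). In RAH-2 against DA5-3, 2 rose and 3 fell, or 5.32%, against 6.55% (3.36% higher and 3.2% lower). The counts were lower with DA5-3 arrays left out, at 3 in RahES and 4 in RAH-6 without DA5-3 replicate 1, and 3 in RAH-2 without replicate 2 or 3. Part of each drop came from the filter, which the called genes Rab38 and Sytl2 failed when any DA5-3 array was left out. The comparisons share the DA5-3 arrays.

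Of the melanosome proteins and pigment enzymes, 10 of 16 on the array were measured in ES cells and 0 were called in RahES against DA5-3, while 6 passed an adjusted p below 0.05 alone, which 57.3% of all genes did. Their median log2 difference was 0.16, against 0.03 for all genes. Cd63, a tetraspanin that sorts PMEL into the vesicles of the early melanosome, had mean signals of 9159 in RAH-6 and 7068 in RAH-2, against 9158 in DA5-3. Bace2, the protease that cuts PMEL into fibril fragments, averaged 46.6 in RAH-6, 40.8 in RAH-2, 26.0 in DA5-3 and 463 in round sperm. In RahES, Pmel was thus measured where the mean signal of this protease was below 100.

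Of the genes of melanosome assembly and transport, 34 of 39 were measured, 1 rose and 2 fell in RahES against DA5-3, with a median of 0.07. Rab27a, the small GTPase that ties melanosomes to their motor, rose to 163 ± 16.2 in RAH-6 and had 88.8 ± 9.24 in RAH-2, against 43.1 ± 16.2 in DA5-3 (SD, n = 3 each). In RahES the rise over DA5-3 was at least 1.26-fold, with a log2 difference of 1.25 ± 0.20 (SE; limma, adjusted p = 0.0001636). It was below a log2 difference of 1 without DA5-3 replicate 3 (0.998). Rab38, a GTPase that carries pigment enzymes to the melanosome, fell to 63.1 ± 15.1 in RahES, against 170 ± 29.4 in DA5-3, a log2 difference of -1.24 ± 0.20 (adjusted p = 0.0001638). Sytl2, a RAB27A partner at the cell membrane, fell to 35.7 ± 17.8 in RahES, against 129 ± 7.67 in DA5-3, at -1.59 ± 0.29 (adjusted p = 0.0004453). Rab38 and Sytl2 passed the filter through the DA5-3 arrays alone, and Rab27a through the RAH-6 arrays alone. The filter thus favoured a difference in these genes, and their adjusted p-values are a description. The RahES means of Rab38 and Sytl2 lay below the limit of a measured level, so the size of their fall was not measured. With 64 in place of 16 added before log2, the differences of RahES from DA5-3 were 0.81 for Rab27a, -0.88 for Rab38 and -0.97 for Sytl2, all short of a call. In RAH-6 against DA5-3, Hps1, a subunit of a complex that forms lysosome-related organelles, rose to 146 ± 18.3, against 56.1 ± 18.5 in DA5-3, at 1.19 ± 0.25 (adjusted p = 0.001453). Hps1 passed the filter through haploid arrays alone, so its adjusted p-value is a description too. Its DA5-3 mean lay below 100, so the size of its rise was not measured. Mlph, which links RAB27A to myosin, was below the filter in ES cells, and the motor gene Myo5a averaged 373 in RAH-6 and 219.7 in RAH-2, against 217 in DA5-3, at 0.39 ± 0.13 in RahES against DA5-3, short of a call.

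Of the MITF family and melanocyte transcription factors, 9 of 13 were measured, 1 rose and 1 fell in RahES against DA5-3, with a median of -0.16. Zeb2, a zinc finger factor of neural crest, melanocytes and mesenchyme, fell to 72.6 ± 34.5 in RahES, against 474 ± 29.9 in DA5-3, at -2.57 ± 0.25 (limma, adjusted p = 2.505e-06). The RahES mean of Zeb2 lay below 100, so the size of its fall was not measured. Zeb2 moved with the fibroblast and feeder markers, whose sums are given above, and their part was not tested. Bhlhe40, a helix-loop-helix repressor, rose to 359 ± 93.2 in RahES, against 162 ± 12.5 in DA5-3, at 1.05 ± 0.10 (adjusted p = 3.319e-06). That RahES SD, over 6 arrays, includes the difference between the haploid lines. In RahES the difference of Bhlhe40 was 0.99 without DA5-3 replicate 1 and 0.88 with 64 added before log2, both below the limit. By line, Bhlhe40 was called against DA5-3 in RAH-2 and not in RAH-6. With single arrays left out, its difference was 1.29 to 1.43 in RAH-2 and 0.66 to 0.79 in RAH-6. The partners of MITF were not called between the ES lines. Tfeb averaged 1606 in RAH-6 and 1780 in RAH-2, against 1982 in DA5-3, a log2 difference of -0.22 ± 0.13 for RahES against DA5-3. Tfe3 averaged 1945 in RAH-6 and 2217 in RAH-2, against 1686 in DA5-3, at 0.30 ± 0.08. Tfec was below the filter.

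Of the melanocyte receptors and ligands, 2 of 8 were measured and 0 were called in ES cells, where 1 passed the adjusted p alone in RahES against DA5-3. Kitlg, the ligand of the melanoblast receptor KIT, averaged 773 in RAH-6 and 719 in RAH-2, against 791 in DA5-3, and Kit itself was below the filter with means of 80.5 in RAH-6 and 52.6 in RAH-2, against 12.1 in DA5-3.

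The lysosome genes, many of them targets of TFEB and TFE3, were seldom called, and most of those that passed the adjusted p alone were higher in the haploid lines. Of 42 on the array, 39 were measured, and 1 rose and 0 fell in RahES against DA5-3. That gene was Fnip2, a folliculin partner in the signalling that holds TFE3 in the cytoplasm, which rose to 5754 ± 808 in RahES, against 2117 ± 261 in DA5-3, at 1.43 ± 0.07 (limma, adjusted p = 5.36e-09). In RAH-6, Asah1, an acid ceramidase, also rose to 2299 ± 328, against 1110.5 ± 205 in DA5-3, at 1.05 ± 0.14 (adjusted p = 4.776e-05). At an adjusted p below 0.05 alone, 30 of 39 lysosome genes were higher and 2 lower in RAH-6 against DA5-3, where 30.3% of all genes were higher and 25.4% lower. In RAH-2 against DA5-3, 17 were higher and 6 lower, with 28.1% and 22.5% of all genes. The medians over the list were 0.42 in RAH-6 and 0.17 in RAH-2 against DA5-3, with 0.03 for all genes in both. The lines followed the same order in the 3′ to 5′ ratios, 1.14 in RAH-6 and 1.26 in RAH-2, against 1.47 in DA5-3 for Gapdh, and the part of RNA length in the lysosome genes was not tested.

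**Figure D3:**
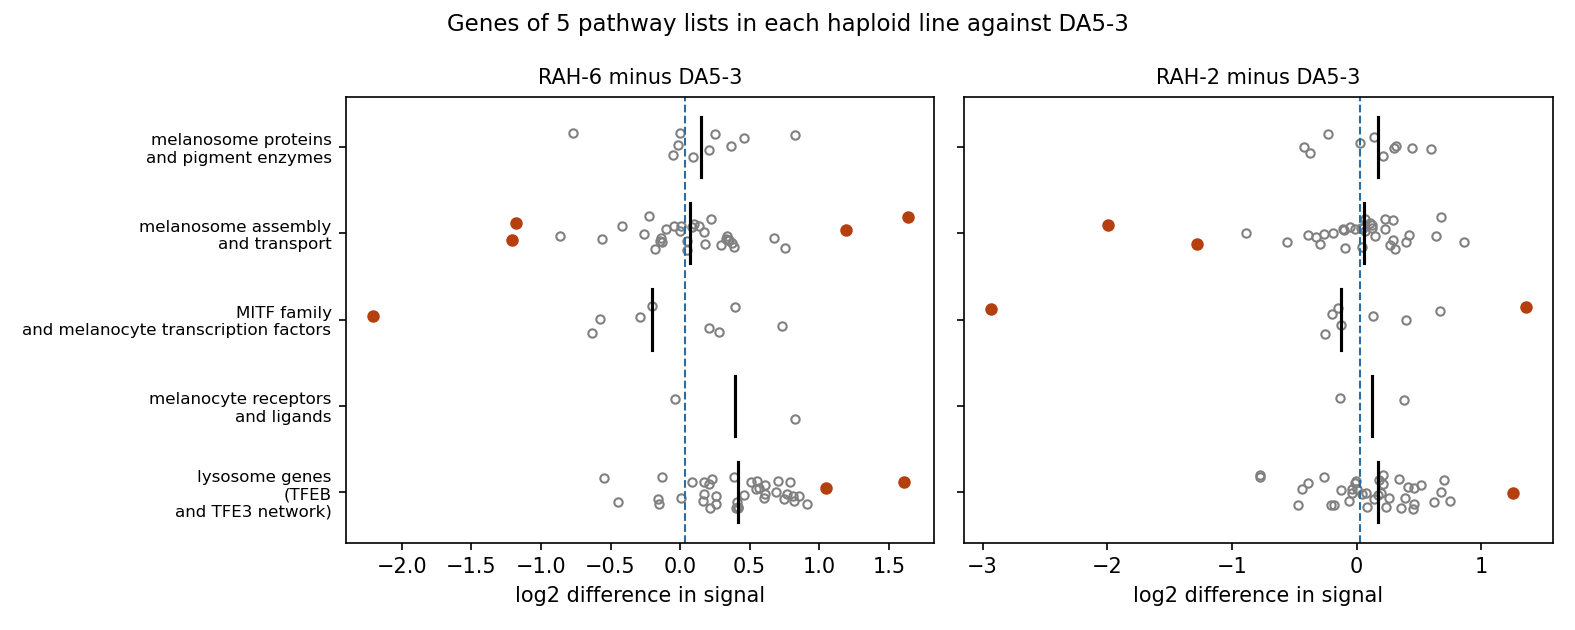
Log2 difference in signal of each measured gene of the 5 lists, RAH-6 minus DA5-3 on the left and RAH-2 minus DA5-3 on the right (axes differ in range); filled points were called, black bars are list medians and the dashed line is the median of all genes. The lysosome median is at 0.42 on the left and 0.17 on the right.

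The haploid lines were compared with each other as well. Of 94 measured pathway genes, 0 were called in RAH-6 against RAH-2 by limma, where 0.804% of all genes were (0.611% higher and 0.193% lower). At an adjusted p below 0.05 alone, 38 passed, or 40.4%, against 19.0% of all genes. Without RAH-2 replicate 2, the array of that line with the highest fibroblast marker sum, 1 was called, Zeb2 (1.12, adjusted p = 0.003941). The mean of Zeb2 over the haploid lines was below 100, so the size of that difference is uncertain. Of 39 lysosome genes, 23 were higher and 1 was lower at an adjusted p below 0.05 alone, with a median of 0.31, where 9.76% of all genes were higher and 9.21% lower. Ctsd, a lysosomal protease, had 3589 in RAH-6 and 2524 in RAH-2, a log2 difference of 0.50 ± 0.09 (adjusted p = 0.002097), and the membrane protein Lamp1 had 12454 in RAH-6 and 10682 in RAH-2, at 0.22 ± 0.04 (adjusted p = 0.003089). Pmel and Gpnmb were higher in RAH-6 in the same arrays, by 1.73 and 1.18 on the log2 scale.

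Against round sperm cells most of the 10538 genes were called, 72.1% in RahES (43.2% higher and 28.9% lower) and 72.7% in DA5-3 (43.2% higher and 29.5% lower). Of 101 measured pathway genes, 54 rose and 18 fell in RahES (71.3%) and 55 rose and 20 fell in DA5-3 (74.3%), near those backgrounds. Fnip2, Ctsl, a lysosomal protease, and Tfe3 were among the genes that rose in ES cells, Ctsl at 9660 ± 1307 in RahES, against 251 ± 35.2 in round sperm (limma, adjusted p = 5.895e-17). Fuca1, a lysosomal fucosidase, fell to 1632 ± 129 in RahES and 1143 ± 41.1 in DA5-3, against 17949 ± 396 in round sperm (adjusted p = 3.828e-17 and 7.17e-17). Tyrp1, a pigment enzyme, and Mlph fell in ES cells too. Tyrp1 had 8.37 in RahES, against 242 in round sperm (adjusted p = 2.151e-08), and Mlph 60.3 in RahES, against 3501 in round sperm (adjusted p = 1.533e-12). Both genes failed the filter on the ES cell arrays and were kept through round sperm, where they were high. The filter thus favoured a difference in Tyrp1 and Mlph, and their adjusted p-values are a description. Their RahES means lay below 100, so the size of these falls was not measured. Round sperm thus had mean signals above 100 for Pmel, Gpnmb, Tyrp1, Bace2 and Mlph, whereas Mlana and Mitf were below 100 there.

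Genes with the pattern most like each member were ranked by Pearson's r of log2 signal, as a description over arrays that share groups. Over the 9 ES cell arrays and 9322 other genes, those nearest to Pmel were Tmem140, Tpm4, LOC102548586, Zfp277 and Npc2, with r from 0.992 to 0.995. Map4k3 was nearest to Mlana (0.998), Fcgr2b to Gpnmb (0.992) and Ppan to Mitf (0.992). Rab27a was the third nearest to Gpnmb, with r of 0.978. Between members, r over the ES arrays was 0.927 for Pmel and Gpnmb, 0.873 for Pmel and Mlana, and -0.951 for Pmel and Mitf. Such values follow from 3 groups of arrays, each with its own level.

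Over all 12 arrays the order changed. Rbm11 (0.988), Mpp4 (0.979) and Skap1 (0.978) were nearest to Pmel, Vsig10l (0.980) to Mlana, Gapvd1 (0.934) and Pmel (0.923) to Gpnmb, and Mapk14 (1.00) to Mitf. Skap1 shows how close such a match was, at 1612 in RAH-6, 577 in RAH-2, 140.1 in DA5-3 and 643 in round sperm. The r of Pmel with Mitf was -0.04 over the 12 arrays. The list depended on the measure, since with Spearman's rho 1 of the 5 genes nearest to Pmel over 12 arrays was the same and 0 over the ES arrays.

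**Figure D4:**
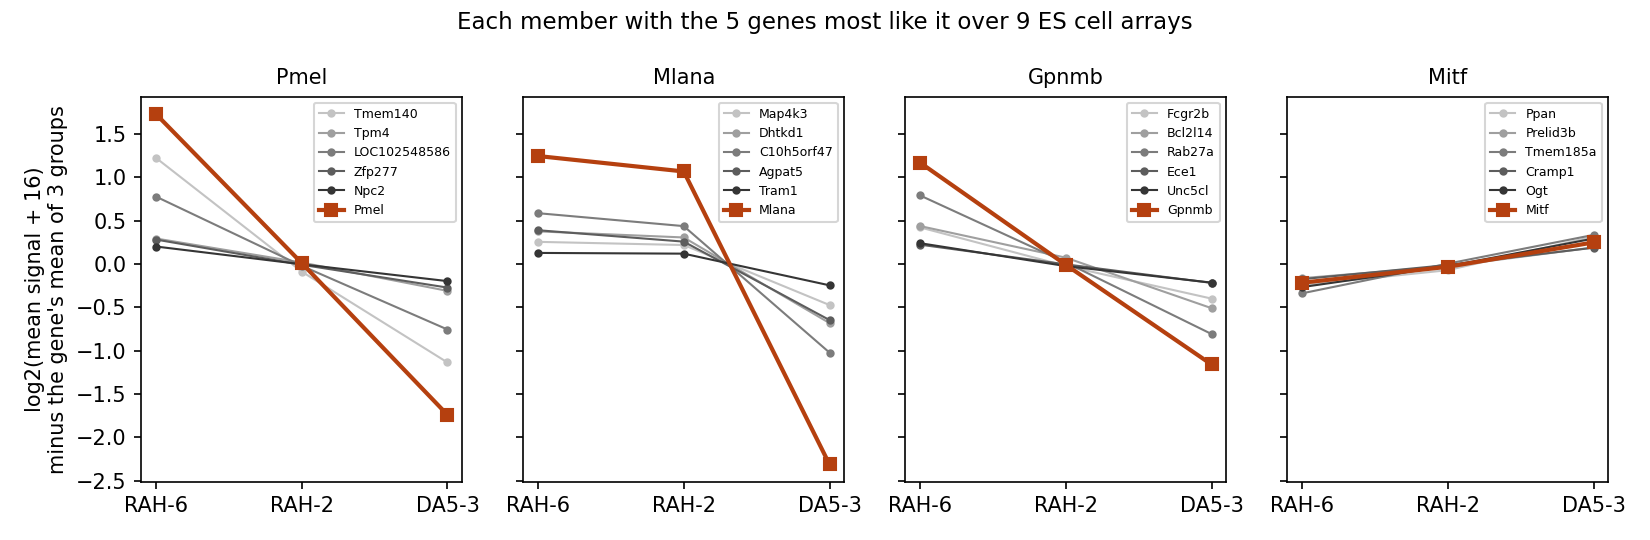
Group means of each member (red squares) and of the 5 genes with the highest Pearson r over the 9 ES cell arrays (grey), as log2(mean signal + 16) minus the gene's own mean over 3 groups. The nearest genes share the shape of Pmel, Mlana and Gpnmb over smaller steps, and the lines around Mitf lie close together.

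The genes beside the members on the chromosome were looked up, after the members' values were known, in the RefSeq order of GRCr8. Of 8 neighbours, 7 were measured in ES cells, and 0 of these were called in RahES against DA5-3. Of all 9323 genes, 6.65% were called in that comparison, so 0 among 7 is no result about the neighbours. The nearest to a call was Cdk2, a cell cycle kinase gene next to Pmel on chromosome 7, at 844 in RAH-6 and 797 in RAH-2, against 463 in DA5-3, with a log2 difference of 0.78 ± 0.15 (limma, adjusted p = 0.0005617). Dgka on the other side of Pmel had 256 in RAH-6 and 204 in RAH-2, against 174 in DA5-3. Ermp1 and Brd10 beside Mlana on chromosome 1 differed by 0.38 ± 0.06 and -0.01 ± 0.08 on the log2 scale.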

How the data were processed

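The values were those that the authors deposited for 12 arrays as log2 MAS5 signals, per the submitters' processing notes. The MAS5 version is not given in the sources used here. They were returned to the linear scale, set to a 2% trimmed mean of 500 (500.18 to 500.28 before), and 16 was added before log2. Probe sets at or above 100 in at least 3 arrays of a fit were kept, and a gene was represented by its kept probe set of highest mean signal. Of 31099 probe sets, 20832 named 1 gene, 436 several and 9831 none, in an annotation that matched the RefSeq table of GRCr8 for 20764. Differences were fitted with limma 3.58.1 in R 4.3.3, with a variance trend, on 9 ES cell arrays (9323 genes) or all 12 (10538 genes), and checked on simulated data. RahES is the mean of RAH-6 and RAH-2 with equal weight. An SD given for RahES is over its 6 arrays and includes the difference between the 2 lines. Where every array of a group was below 100, a fold is a lower bound against 100.

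The members, lists and tests were chosen with earlier results of these data known. Named were all member probe sets, up to 5 called genes of each list by adjusted p (up to 3 in comparisons with round sperm and between haploid lines), 17 looked-up genes, the 5 genes most like each member, and the most abundant markers. Neighbours and Skap1 were named after their values were seen. A deposited quality report was not used, since its array codes occur in no label. Alternatives were offsets of 1 and 64, filters, scalings, probe set rule, variance model, replicate block and arrays left out.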

Additional observations from a re-analysis of the deposited data

Results flagged for a closer look

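Among the genes of the pathway lists called in at least 1 haploid line against DA5-3, 4 also differed between the haploid lines themselves, by the limma test of RAH-6 against RAH-2 with adjustment over all genes. Rab27a was higher in RAH-6 by 0.7725 ± 0.23 on the log2 scale (SE, adjusted p = 0.03437), and all 3 RAH-6 arrays were above all 3 RAH-2 arrays. Asah1 was higher in RAH-6 by 0.5848 ± 0.1413 (adjusted p = 0.01318) and Fnip2 by 0.3598 ± 0.07734 (adjusted p = 0.007618), again without overlap. Bhlhe40 went the other way, at -0.6203 ± 0.1204 (adjusted p = 0.004351), with every RAH-6 array below every RAH-2 array. Of all genes, 19.0% passed this adjusted p alone, and 41.2% did not overlap between the haploid lines. The 4 genes were picked by calls on the same RAH-6 and RAH-2 arrays, which favours a difference between the lines. Their adjusted p-values are thus a description, and the shares of all genes are no measure for genes picked in this way. Rab27a also passed the filter through the RAH-6 arrays alone.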

How the results depend on the processing

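No called gene named here and no fitted difference of a member changed its sign under an alternative. Signs did change for small differences of genes that were not called, such as Kitlg and Tfeb, and for some small list medians. The median of the MITF family list in RAH-2 against DA5-3 was -0.13, and 0.10 without the 3 arrays with extreme controls. The median of the assembly and transport list was 0.02 in RAH-6 against RAH-2 and 0.09 in RahES against round sperm, and -0.09 and -0.34 with median centring. Counts of called genes stayed within 1.5 times in 226 instances and moved further in 22, and log2 differences of members stayed within the spread between replicates in 456 instances and moved further in 40. Called pathway genes in RahES against DA5-3 numbered 6, against 2 with an offset of 64, 3 with a filter at 200, 3 without the 3 arrays with extreme controls and 3 to 7 with single arrays left out. The low end was without DA5-3 replicate 1, and Rab38 and Sytl2 failed the filter when any DA5-3 array was left out. In RAH-6 against DA5-3 they numbered 7, against 4 with an offset of 64, 12 without a filter, 3 with a filter at 200, 4 without the 3 arrays and 4 to 7 with single arrays left out, lowest without DA5-3 replicate 1. In RAH-2 against DA5-3 they numbered 5, against 8 without a filter, 3 with a filter at 200 and 3 to 6 with single arrays left out, lowest without DA5-3 replicate 2 or 3. In RAH-6 against RAH-2 they numbered 0, against 1 without the 3 arrays and 0 to 1 with single arrays left out.

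Over all genes, an offset of 64 gave 407 calls for RahES against DA5-3 (620 otherwise), 398 for RAH-2 against DA5-3 (611) and 26 for RAH-6 against RAH-2 (75). The last was 113 without a filter, 47 with a filter at 200, 49 without RAH-2 replicate 1 and 125 without RAH-2 replicate 2, the range with single arrays left out. Higher calls made up 51.2% in RAH-2 against DA5-3, 76.0% in RAH-6 against RAH-2 and 59.9% in RahES against round sperm, against 60.9%, 62.7% and 52.2% with median centring. The median of all genes was then 0.13, -0.11 and 0.15, against 0.03, 0.01 and 0.59. The cause of these shifts was not tested.

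The log2 difference of RahES from DA5-3 was 2.79 for Pmel and 5.02 for Mlana with an offset of 1, and 2.20 for Pmel, 2.32 for Mlana and 1.30 for Gpnmb with an offset of 64, which draws low signals together. With single arrays left out it was 2.51 to 2.68 for Pmel, 3.37 to 4.07 for Mlana, 1.36 to 2.33 for Gpnmb and -0.40 to -0.35 for Mitf. With an offset of 64, Bhlhe40 (0.88), Rab27a (0.81), Rab38 (-0.88) and Sytl2 (-0.97) were no longer called in RahES against DA5-3. The lysosome median exceeded that of all genes by 0.37 to 0.42 in RAH-6 against DA5-3, 0.08 to 0.15 in RAH-2 against DA5-3 and 0.22 to 0.32 in RAH-6 against RAH-2 over the alternatives.

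Arrays with the same replicate number did not deviate together (r from -0.07 to 0.06, against -0.08 to 0.07 for unlike numbers). This gave no sign that the numbers pair the arrays, but with 3 arrays per group it cannot exclude pairing. With the replicate number as a block, called pathway genes numbered 6, 7, 5 and 0 in the 4 ES comparisons and 72 and 75 against round sperm, the same counts as without it.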
